A study of Mus musculus with 12 samples.

Results

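Toll-like receptors were followed through 12 arrays of mouse glioblastoma treated with temozolomide, an antibody against PD-1, both or neither. The family was taken as 10 genes, Tlr1 to Tlr9 and Tlr13, each read from the probe set whose array annotation names that symbol alone. They are 10 of the 22180 genes with such a probe set, and each had exactly 1. The tumours were GL261, a mouse glioblastoma line that grows in immunocompetent hosts, placed in the brains of male C57BL/6 mice aged 8 weeks and collected on day 16. The TMZ group received temozolomide, a DNA-alkylating drug, at 30 mg/kg into the peritoneum. The Anti-PD-1 group received antibody against PD-1, an inhibitory receptor of T cells, at 10 mg/kg into a vein with 2 injections per week. The Combination group received both agents, and for the Control group the labels name no agent. The labels state neither the dosing days, what Control mice were given in place of the agents, nor whether each array came from a separate animal, so p-values measure the spread between arrays, which may be technical. Each group holds 3 arrays of total RNA from the tumour mass. GL261 is a single established line, so the tumours share 1 genetic background.

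Toll-like receptors are membrane sensors of microbial molecules and of material released by damaged cells. Receptors at the cell surface bind lipids and proteins (Tlr1, Tlr2, Tlr4, Tlr5 and Tlr6), while receptors in endosomes bind nucleic acids (Tlr3, Tlr7, Tlr8, Tlr9 and Tlr13). Most signal through the adaptor Myd88, and Tlr3 through Ticam1, to NF-kB and interferon regulatory factors that switch on cytokine and interferon genes. In the brain they are best known in microglia and in infiltrating macrophages, and Tlr3 is also known in astrocytes.

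Promoter sequence is shown for the 3 receptors whose Anti-PD-1 arrays all lay below all Control arrays, Tlr13, Tlr9 and Tlr2, and for Tlr3, whose calls turned on a single Control array. RefSeq promoters (build GRCm38.p6) were found for 8 of the 10 genes, in 10 windows of 250 bases ending at an annotated start site. Each window was searched on both strands for 4 motifs. These were the PU.1 core GAGGAA (PU.1 is a myeloid transcription factor), the interferon regulatory factor element AANNGAAA, the NF-kB element (GGG, 5 bases of any kind, CC) and the STAT element TTCNNNGAA. The Tlr13 stretch is chrX:106143025-106143274 and the Tlr9 stretch chr9:106222348-106222597, both on the plus strand and running from base -250 to base -1 of the start site. The Tlr2 stretch is chr3:83841762-83841791 and the Tlr3 stretch chr8:45410421-45410450, both on the minus strand and limited to 30 bases because these start sites lie 216 and 695 bases inside the annotated gene. Capitals mark the PU.1 core in Tlr13 and Tlr9, the NF-kB element in Tlr2 and the interferon regulatory factor element, here on the opposite strand, in Tlr3.
Tlr13: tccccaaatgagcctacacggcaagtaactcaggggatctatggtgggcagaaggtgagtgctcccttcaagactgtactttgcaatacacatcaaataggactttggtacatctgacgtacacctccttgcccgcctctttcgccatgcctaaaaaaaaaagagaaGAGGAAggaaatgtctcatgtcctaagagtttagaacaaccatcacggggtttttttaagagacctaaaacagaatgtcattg
Tlr9: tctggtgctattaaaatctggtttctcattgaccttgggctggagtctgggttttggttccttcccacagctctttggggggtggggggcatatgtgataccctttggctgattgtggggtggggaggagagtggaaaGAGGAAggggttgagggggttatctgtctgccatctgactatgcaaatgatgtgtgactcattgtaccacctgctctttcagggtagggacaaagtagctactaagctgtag
Tlr2: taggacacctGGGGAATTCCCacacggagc
Tlr3: aagtgaatggcTTTCACTTtgtttagacac

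The PU.1 core starts at base -83 of the Tlr13 start site and at base -112 of the Tlr9 start site. It occurred in 4 of the 10 receptor windows and in 23.3% of 32851 RefSeq promoter windows of the same length. The NF-kB element also occurred in 4 of the receptor windows, against 45.8% of all windows. The interferon regulatory factor element was in 4 receptor windows, against 21.3% of all windows, and the STAT element in 2, against 7.02%. The overlapping matches that make up the capitals in Tlr2 were counted as a single window. The Tlr2 window also held 2 interferon regulatory factor elements and the Tlr3 window 2 NF-kB elements, all outside the stretches printed. These are matches of letters and say nothing of binding.

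The deposited values are log2 signals after RMA, a method that normalises the arrays together, so a difference of 1 is a 2-fold change. Array medians lay between 5.06 and 5.12, and arrays correlated with each other at 0.984 to 0.991. Neuron genes (9 measured) averaged 10.14 to 10.24 per array, and the 8 genes of glioma and dividing cells 6.14 to 7.38. Control replicate 3 stood apart from the other Control arrays, with a mean of 7.01 for 11 macrophage genes against 7.51 and 7.55, and 6.01 for 12 interferon-stimulated genes against 6.87 and 7.15. Differences from Control are therefore also given without it for each receptor. It was the lowest Control array for Tlr2, Tlr3, Tlr4, Tlr7, Tlr8, Tlr9 and Tlr13, so leaving it out lowers their differences from Control. Control replicate 2 was the highest for the same receptors. Leaving out that array raises the differences instead, which makes their drops in Anti-PD-1 tumours smaller than in the reported fit. The arrays measured whole tissue, in which fewer cells of a type and less RNA per cell cannot be told apart.

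Signals were modest for most receptors. A log2 signal above 5 on at least 3 arrays was reached by 6 receptors (Tlr2, Tlr3, Tlr4, Tlr5, Tlr9 and Tlr13), or 60% of the family, against 63.8% of all genes. Tlr1, Tlr6, Tlr7 and Tlr8 did not reach it, and fold changes of signals this low can be understated by background. Tlr4 and Tlr13 reached it only through other groups than Anti-PD-1. Their Anti-PD-1 arrays all lay below 5, at 4.62 to 4.88 and 4.51 to 4.78, so the same limit holds for their Anti-PD-1 differences. The receptors also differed in how far the groups lay apart, with group means spanning 0.59 for Tlr13 on the log2 scale, 0.36 for Tlr7, 0.35 for Tlr2 and 0.32 for Tlr3. Tlr1 was the flattest, with group means spanning 0.07. None of the 10 receptors passed limma's test at an adjusted p of 0.05 in any of the comparisons.

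**Figure D1:**
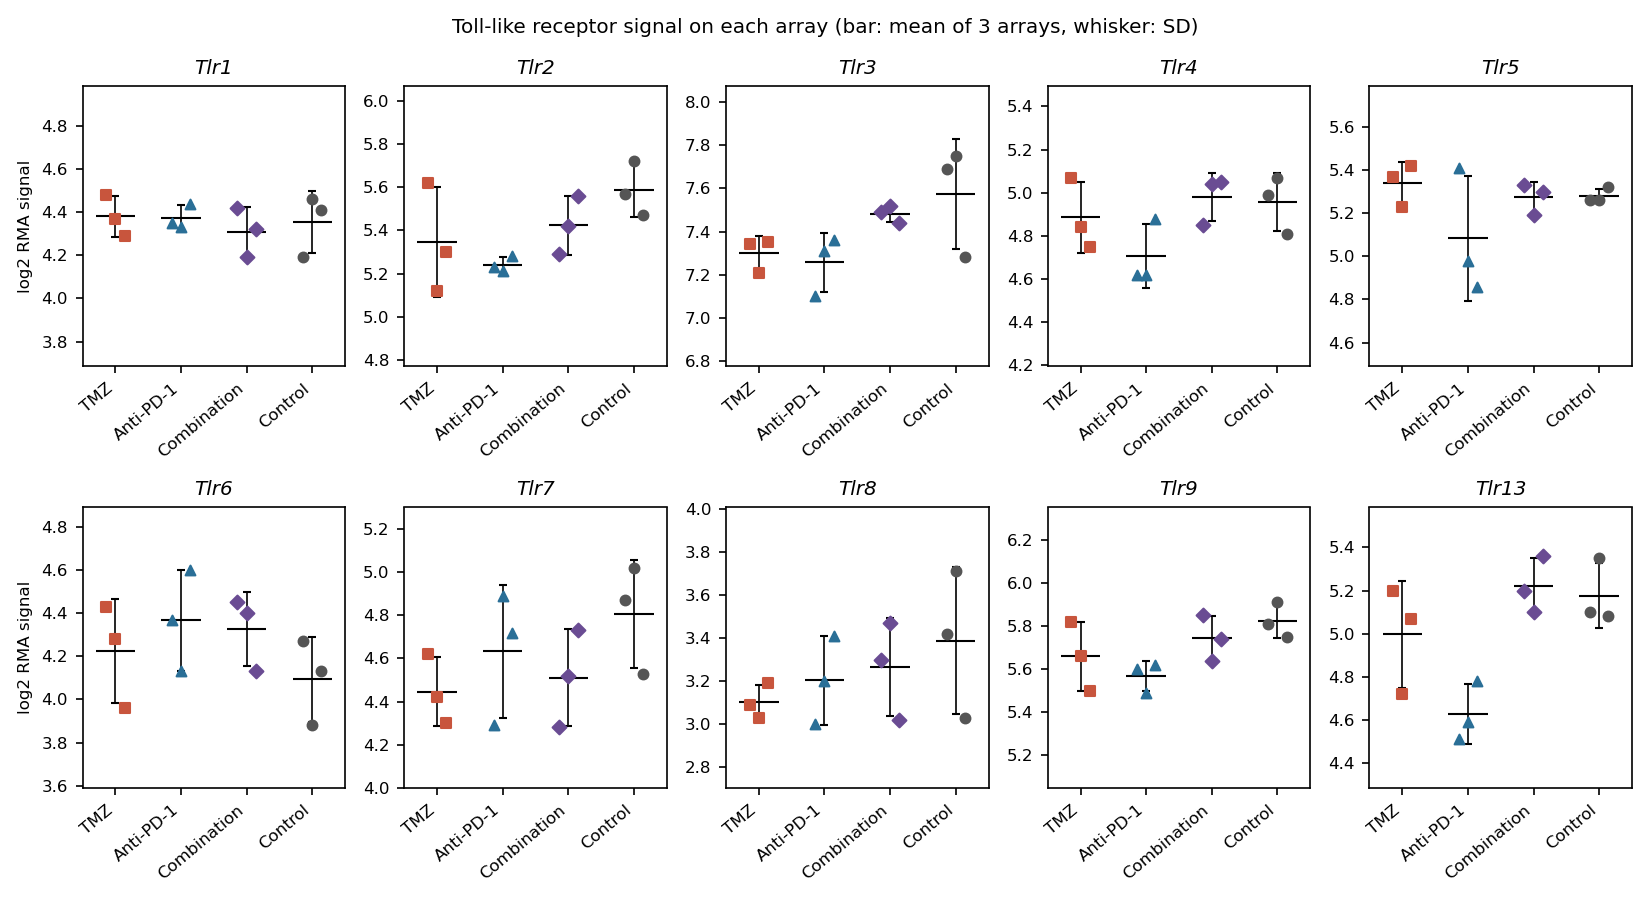
Log2 RMA signal of each Toll-like receptor (1 panel per gene, vertical axis) on each of 12 arrays, grouped on the horizontal axis as TMZ, Anti-PD-1, Combination and Control; bars are means of 3 arrays and whiskers are SD. Tlr13 shows the 3 Anti-PD-1 arrays, at 4.51 to 4.78, below every Control and Combination array.

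The median difference from Control was furthest from 0 in Anti-PD-1 tumours, and Tlr13, Tlr2, Tlr3, Tlr4 and Tlr9 had the smallest p-values. Of the 10 receptors, 8 had a lower mean in Anti-PD-1 tumours than in Control tumours, and the median difference was -0.22 on the log2 scale, against 0.008 over all genes, of which 47.6% were lower. Adjusted p-values ran from 0.0936 to 0.939 (limma, Benjamini-Hochberg over all genes), and 0 receptors passed, against 0.293% of all genes. At an unadjusted p under 0.05 there were 5 receptors, against 13.5% of all genes. All Anti-PD-1 arrays lay below all Control arrays for 3 receptors (Tlr2, Tlr9 and Tlr13), against 8.33% of all genes, and above them for none, against 10.3%.

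In TMZ tumours, Tlr7, Tlr8, Tlr3 and Tlr2 had the lowest differences from Control. Of the 10 receptors, 7 had a lower mean in TMZ tumours than in Control tumours, with a median difference of -0.17, against 0.006 over all genes, of which 47.9% were lower. In limma's test 0 receptors passed, against 0.0992% of all genes, and 1 (Tlr3) had an unadjusted p under 0.05, against 11.3% of all genes. The TMZ arrays overlapped the Control arrays for every receptor, so 0 were separated, against 6.81% of all genes on the lower side and 8.19% on the higher side.

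In Combination tumours Tlr7 had the lowest difference, -0.30, and Tlr6 the highest, 0.23. The median difference was -0.06, with 7 of 10 lower, against 0.000 over all genes, of which 49.8% were lower. In limma's test 0 receptors passed, as did 0% of all genes, and 0 receptors had an unadjusted p under 0.05, against 11.6% of all genes. No receptor's Combination arrays were separated from the Control arrays, against 7.82% of all genes on the lower side and 8.98% on the higher side. The 3 comparisons share the same Control arrays.

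**Figure D2:**
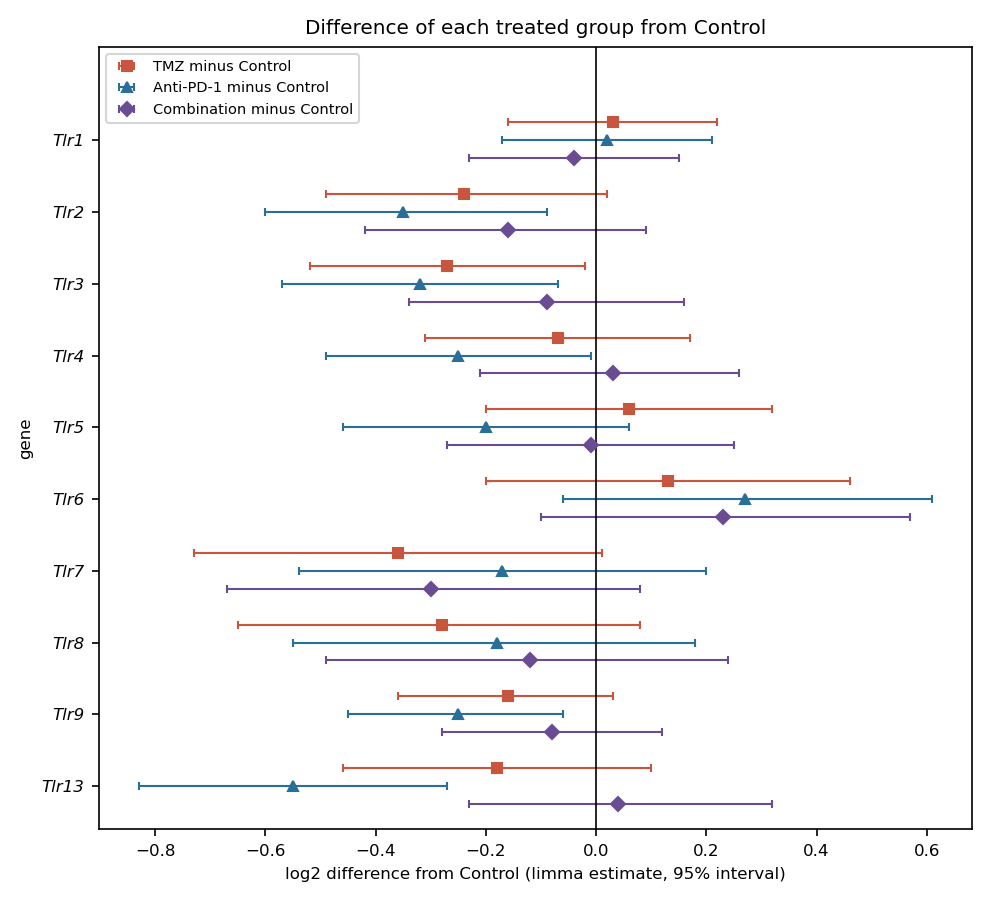
Log2 difference from Control on the horizontal axis for each Toll-like receptor, with TMZ, Anti-PD-1 and Combination drawn as separate points; points are limma estimates and bars are 95% intervals. The Anti-PD-1 interval of Tlr13 runs from -0.83 to -0.27, while its Combination interval, -0.23 to 0.32, spans 0.

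Tlr13, the endosomal sensor of bacterial ribosomal RNA, had the widest spread between groups. Its probe set (17537081; gene on chromosome X, 106143275 to 106160493, in GRCm38.p6) had log2 signals of 5.20, 4.72 and 5.07 on the TMZ arrays, 4.51, 4.59 and 4.78 on the Anti-PD-1 arrays, 5.20, 5.10 and 5.36 on the Combination arrays and 5.10, 5.35 and 5.08 on the Control arrays. The Anti-PD-1 arrays lay below every Control and Combination array, and of the TMZ arrays only replicate 2 fell among them. Means were 5.0 ± 0.25 in TMZ, 4.63 ± 0.14 in Anti-PD-1, 5.22 ± 0.13 in Combination and 5.18 ± 0.15 in Control tumours (SD, n = 3 each). TMZ, Combination and Control arrays overlapped each other, so their order by mean is within the spread. Anti-PD-1 was 0.68 of Control, a log2 difference of -0.55 ± 0.13 (SE), with a limma adjusted p of 0.0936. TMZ minus Control was -0.18 ± 0.13 and Combination minus Control 0.04 ± 0.13, with adjusted p-values of 0.643 and 0.923. Without Control replicate 3 the Anti-PD-1 difference was -0.60 with an adjusted p of 0.0536, and the TMZ and Combination differences were -0.23 and -0.01. Without Control replicate 2 the TMZ and Combination differences were -0.09 and 0.13. That array had the highest Control signal, 5.35, so without it the Anti-PD-1 drop is smaller than in the reported fit. With a variance that follows signal level in limma the Anti-PD-1 difference was -0.55 with an adjusted p of 0.0453, past the threshold. With the macrophage marker level as a covariate, which was added once results were known, it was -0.27 with an adjusted p of 0.815.

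Tlr9, which binds unmethylated CpG DNA in endosomes, had the smallest standard error of the 3 receptors separated from Control (gene on chromosome 9, 106222598 to 106226876). Its log2 signals were 5.82, 5.66 and 5.50 on the TMZ arrays, 5.60, 5.49 and 5.62 on the Anti-PD-1 arrays, 5.85, 5.64 and 5.74 on the Combination arrays and 5.81, 5.91 and 5.75 on the Control arrays. The highest Anti-PD-1 array lay below the lowest Control array, and TMZ arrays overlapped both, while Combination arrays overlapped only the Control arrays and lay above the Anti-PD-1 arrays. Anti-PD-1 minus Control was -0.25 ± 0.09, with a 95% interval of -0.45 to -0.06 and a limma adjusted p of 0.239, and TMZ minus Control was -0.16 ± 0.09 and Combination minus Control -0.08 ± 0.09 (adjusted p 0.528 and 0.776). The TMZ, Anti-PD-1 and Combination differences were -0.20, -0.29 and -0.12 without Control replicate 3.

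Tlr3, the sensor of double-stranded RNA, was the 1 receptor to pass when an array was left out (gene on chromosome 8, 45395665 to 45411075). It had log2 signals of 7.34, 7.21 and 7.35 on the TMZ arrays, 7.10, 7.31 and 7.36 on the Anti-PD-1 arrays, 7.49, 7.52 and 7.44 on the Combination arrays and 7.69, 7.75 and 7.28 on the Control arrays. Control replicate 3 sat within the range of the treated arrays, while Control replicates 1 and 2 exceeded all of them. TMZ minus Control was -0.27 ± 0.11 and Anti-PD-1 minus Control -0.32 ± 0.11, with limma adjusted p-values of 0.399 and 0.249, and Combination minus Control was -0.09 ± 0.11 (adjusted p 0.812). Without Control replicate 3 both single-agent differences passed, though the count of all genes passing also varied widely with the array left out. TMZ minus Control became -0.42 with an adjusted p of 0.0406, and Anti-PD-1 minus Control -0.46 with an adjusted p of 0.0181, while Combination minus Control was -0.23 (adjusted p 0.23). Both single-agent differences were below 0 under all 20 alternatives, many of which could not move them. They were at -0.42 to -0.07 for TMZ and -0.46 to -0.04 for Anti-PD-1. Both passed the adjusted threshold only with Control replicate 3 left out.

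Tlr7 binds single-stranded RNA in endosomes, as its X-chromosome neighbour Tlr8 is known to do in human cells, and both gave low signals. Tlr7 had log2 signals of 4.62, 4.42 and 4.30 on the TMZ arrays, 4.29, 4.89 and 4.72 on the Anti-PD-1 arrays, 4.28, 4.52 and 4.73 on the Combination arrays and 4.87, 5.02 and 4.53 on the Control arrays. All 3 groups of treated arrays overlapped the Control arrays. The widest of the 3 differences, TMZ minus Control, was -0.36 ± 0.17 with a limma adjusted p of 0.457. Anti-PD-1 minus Control was -0.17 ± 0.17 and Combination minus Control -0.30 ± 0.17 (adjusted p 0.707 and 0.535). Without Control replicate 3 the TMZ, Anti-PD-1 and Combination differences were -0.50, -0.31 and -0.43 (adjusted p 0.208, 0.403 and 0.279), and without Control replicate 2 they were -0.26, -0.07 and -0.19. Tlr8 had log2 signals of 3.09, 3.03 and 3.19 on the TMZ arrays, 3.0, 3.20 and 3.41 on the Anti-PD-1 arrays, 3.30, 3.47 and 3.02 on the Combination arrays and 3.42, 3.71 and 3.03 on the Control arrays. Treated arrays again overlapped the Control arrays, which held both high and low values. Its differences from Control were -0.28 for TMZ, -0.18 for Anti-PD-1 and -0.12 for Combination, with an SE of 0.17 for each and limma adjusted p-values of 0.558, 0.671 and 0.818. They were -0.46, -0.36 and -0.30 without Control replicate 3, and -0.12, -0.02 and 0.04 without Control replicate 2.

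Tlr2, the surface receptor for bacterial lipoproteins, pairs with Tlr1 or Tlr6 (gene on chromosome 3, 83836272 to 83841824). It had log2 signals of 5.62, 5.12 and 5.30 on the TMZ arrays, 5.23, 5.21 and 5.28 on the Anti-PD-1 arrays, 5.29, 5.42 and 5.56 on the Combination arrays and 5.57, 5.72 and 5.47 on the Control arrays. The Anti-PD-1 arrays were close together and all below the Control arrays, while TMZ replicate 1 lay among the Control arrays and the other TMZ arrays below them. Anti-PD-1 was 0.79 of Control (log2 difference -0.35 ± 0.12, limma adjusted p 0.223), and TMZ minus Control and Combination minus Control were -0.24 ± 0.12 and -0.16 ± 0.12 (adjusted p 0.481 and 0.631). Without Control replicate 3 the TMZ, Anti-PD-1 and Combination differences were -0.30, -0.41 and -0.22 (adjusted p 0.322, 0.137 and 0.467). With the macrophage marker level as a covariate the Anti-PD-1 difference was -0.07.

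Tlr1 and Tlr6, the partners of Tlr2, had other orders of group means than Tlr2. Tlr1 had log2 signals of 4.48, 4.37 and 4.29 on the TMZ arrays, 4.35, 4.33 and 4.44 on the Anti-PD-1 arrays, 4.42, 4.19 and 4.32 on the Combination arrays and 4.19, 4.46 and 4.41 on the Control arrays. These gave group means of 4.38 ± 0.09 in TMZ, 4.37 ± 0.06 in Anti-PD-1, 4.31 ± 0.12 in Combination and 4.35 ± 0.15 in Control tumours (SD, n = 3 each), and its differences from Control were 0.03, 0.02 and -0.04. No group of Tlr1 arrays stood apart from the others. Tlr6 had log2 signals of 4.43, 4.28 and 3.96 on the TMZ arrays, 4.37, 4.13 and 4.60 on the Anti-PD-1 arrays, 4.45, 4.40 and 4.13 on the Combination arrays and 4.27, 3.88 and 4.13 on the Control arrays. It averaged 4.22 ± 0.24 in TMZ, 4.37 ± 0.24 in Anti-PD-1, 4.33 ± 0.17 in Combination and 4.09 ± 0.20 in Control tumours, so its treated means were all higher. Its differences from Control were 0.13, 0.27 and 0.23 with an SE of 0.15 each, and limma's adjusted p-values were 0.796, 0.466 and 0.588. Arrays of all groups overlapped for both genes. Leaving out Control replicate 3 gave TMZ, Anti-PD-1 and Combination differences of 0.05, 0.05 and -0.01 for Tlr1 and 0.15, 0.29 and 0.26 for Tlr6. Without Control replicate 2 those of Tlr6 were 0.02, 0.16 and 0.13.

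Tlr4, the receptor for bacterial lipopolysaccharide, had log2 signals of 5.07, 4.84 and 4.75 on the TMZ arrays, 4.62, 4.62 and 4.88 on the Anti-PD-1 arrays, 4.85, 5.04 and 5.05 on the Combination arrays and 4.99, 5.07 and 4.81 on the Control arrays. The Anti-PD-1 arrays included the lowest values, yet replicate 3 reached into the Control range. Anti-PD-1 minus Control was -0.25 ± 0.11 with a limma adjusted p of 0.347, and TMZ minus Control and Combination minus Control were -0.07 and 0.03. For TMZ, Anti-PD-1 and Combination the differences were -0.14, -0.32 and -0.05 without Control replicate 3. Tlr5, the receptor for flagellin, had log2 signals of 5.37, 5.23 and 5.42 on the TMZ arrays, 5.41, 4.98 and 4.86 on the Anti-PD-1 arrays, 5.33, 5.19 and 5.30 on the Combination arrays and 5.26, 5.26 and 5.32 on the Control arrays. It averaged 5.34 ± 0.10 in TMZ, 5.08 ± 0.29 in Anti-PD-1, 5.27 ± 0.07 in Combination and 5.28 ± 0.03 in Control tumours. Its Anti-PD-1 arrays were spread widely, with replicate 1 above and replicates 2 and 3 below all Control arrays. Anti-PD-1 minus Control was -0.20 ± 0.12 (limma adjusted p 0.496), and TMZ minus Control and Combination minus Control were 0.06 and -0.01. They were 0.08, -0.18 and 0.01 for TMZ, Anti-PD-1 and Combination without Control replicate 3.

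Comparing treated groups with each other asks whether adding the second agent moved the receptors. Combination minus Anti-PD-1 was positive for 7 of 10 receptors, with a median of 0.18 against -0.005 over all genes. In limma's test 0 receptors passed, as did 0% of all genes, and 2 (Tlr4 and Tlr13) had an unadjusted p under 0.05, against 4.91% of all genes. For 4 receptors (Tlr2, Tlr3, Tlr9 and Tlr13) every Combination array lay above every Anti-PD-1 array, against 4.87% of all genes, and for 0 below, against 5.67%. For Tlr13 the difference was 0.59 ± 0.13, a ratio of 1.51 of Combination to Anti-PD-1 tumours (95% interval of the log2 difference 0.32 to 0.87), with an adjusted p of 0.925 over all genes. Across 20 settings, the reported fit among them, it stayed between 0.52 and 0.67, and the lowest adjusted p was 0.466. The macrophage marker level was not used as a covariate in this comparison.

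Combination minus TMZ gave differences between -0.07 and 0.22, all with an adjusted p of 1 in limma's test. In limma's test 0 receptors passed, as did 0% of all genes, and 0 had an unadjusted p under 0.05, against 4.19% of all genes. Tlr3 was the 1 receptor whose Combination arrays all lay above the TMZ arrays (0.19 ± 0.11), against 3.81% of all genes, and for 0 receptors did they all lie below, against 4.7%. TMZ minus Anti-PD-1 was 0.37 ± 0.13 for Tlr13, the 1 receptor with an unadjusted p under 0.05, against 4.51% of all genes, with an adjusted p of 1. It was between -0.19 and 0.26 for the others, and 0 receptors passed, as did 0% of all genes. No receptor's TMZ arrays were separated from the Anti-PD-1 arrays, against 4.39% of all genes on the lower side and 4.38% on the higher side.

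The interaction asks whether the effect of both agents differs from the sum of each agent alone. It was positive for 8 of 10 receptors, with a median of 0.34 on the log2 scale, against -0.016 over all genes, of which 53.8% were negative. The interaction was also positive for 11 of 11 macrophage genes (median 0.75) and 11 of 12 interferon-stimulated genes (median 1.95). Of 8 endothelial genes, 7 had a negative interaction (median -0.17). For Tlr13 it was 0.77 ± 0.18 (95% interval 0.38 to 1.16), with an adjusted p of 0.232. It was 0.50 ± 0.16 for Tlr3, 0.42 ± 0.17 for Tlr2, and 0.34 for Tlr4, Tlr8 and Tlr9. In limma's test 0 receptors passed, against 0.00451% of all genes, and 5 (Tlr2, Tlr3, Tlr4, Tlr9 and Tlr13) had an unadjusted p under 0.05, against 8.92% of all genes. Without Control replicate 3 the interaction of Tlr3 became 0.65 with an adjusted p of 0.0296. The F test over the 4 groups passed 0 receptors, against 0.00451% of all genes, and gave its smallest adjusted p, 0.213, for Tlr13, the 1 receptor at an unadjusted p under 0.05 against 10.1% of all genes.

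Macrophage genes also had lower means. Of 11 genes that mark macrophages in general, 11 were lower in TMZ tumours, 11 in Anti-PD-1 tumours and 10 in Combination tumours than in Control tumours, with medians of -0.43, -0.56 and -0.19. In limma's test 0 of them passed in each, and 7, 10 and 1 had an unadjusted p under 0.05, against 11.3%, 13.5% and 11.6% of all genes. Their mean per array ran from 6.76 to 7.29 in TMZ, 6.58 to 7.03 in Anti-PD-1, 7.03 to 7.24 in Combination and 7.01 to 7.55 in Control tumours. With that mean as a covariate the Anti-PD-1 differences were -0.04 for Tlr3 and -0.15 for Tlr9. Microglia genes (10 measured) were lower than Control in 10, 10 and 6 cases for TMZ, Anti-PD-1 and Combination, and their mean per array ran from 6.61 to 6.92, 6.75 to 6.89 and 6.85 to 6.95 in those groups and from 6.86 to 7.03 in Control tumours. Of 12 interferon-stimulated genes, 11, 12 and 12 were lower than Control in the same order, with medians of -1.07, -1.63 and -0.80. Their mean per array ran from 5.40 to 6.06 in TMZ, 4.95 to 5.59 in Anti-PD-1, 5.73 to 6.02 in Combination and 6.01 to 7.15 in Control tumours. In Anti-PD-1 tumours Gbp3 and Bst2, both induced by interferon, passed (log2 differences -1.69 and -2.56, limma adjusted p 0.0495 each), as did the myeloid gene Plac8 (-0.69, adjusted p 0.0326). Of 8 genes of glioma and dividing cells, all were lower than Control in each treated group, and the cell-cycle genes Ccna2, Mki67 and Top2a fell in Anti-PD-1 tumours (log2 differences -1.39, -1.17 and -1.86, limma adjusted p 0.0183, 0.0472 and 0.0326), as did Ccna2 in TMZ tumours (-1.19, adjusted p 0.0402). None of these calls held when only the groups compared were fitted, where 0 genes passed in either comparison. In Anti-PD-1 tumours 0 genes passed with the neuron level as a covariate and 1 gene without Control replicate 1 or 2, and in TMZ tumours 1 and 0 genes without those arrays. Of 8 genes of monocytes and blood-derived macrophages, 6, 8 and 6 were lower than Control in TMZ, Anti-PD-1 and Combination tumours, with medians of -0.16, -0.26 and -0.07. Their mean per array ran from 4.84 to 4.92, 4.67 to 4.81 and 4.85 to 5.09 in those groups and from 5.02 to 5.24 in Control tumours. Of 8 endothelial genes, 8, 7 and 8 were higher than Control, with medians of 0.21, 0.11 and 0.19, and 0 passed in limma's test, with 3, 3 and 2 at an unadjusted p under 0.05. Their mean ran from 6.73 to 7.20 in TMZ, 6.78 to 6.86 in Anti-PD-1, 6.85 to 6.88 in Combination and 6.63 to 6.70 in Control tumours. Of 9 neuron genes, 7, 8 and 6 were higher than Control in TMZ, Anti-PD-1 and Combination tumours, with medians of 0.04, 0.08 and 0.03. Their mean per array ran from 10.16 to 10.24, 10.21 to 10.24 and 10.16 to 10.20 in those groups and from 10.14 to 10.22 in Control tumours. The part of the macrophage, microglial, monocyte, endothelial, neuron, interferon and cell-cycle genes in the receptor differences was not tested. The macrophage and neuron covariates cannot test it. The macrophage level itself had lower means in the treated groups, and the neuron level higher means.

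**Figure D3:**
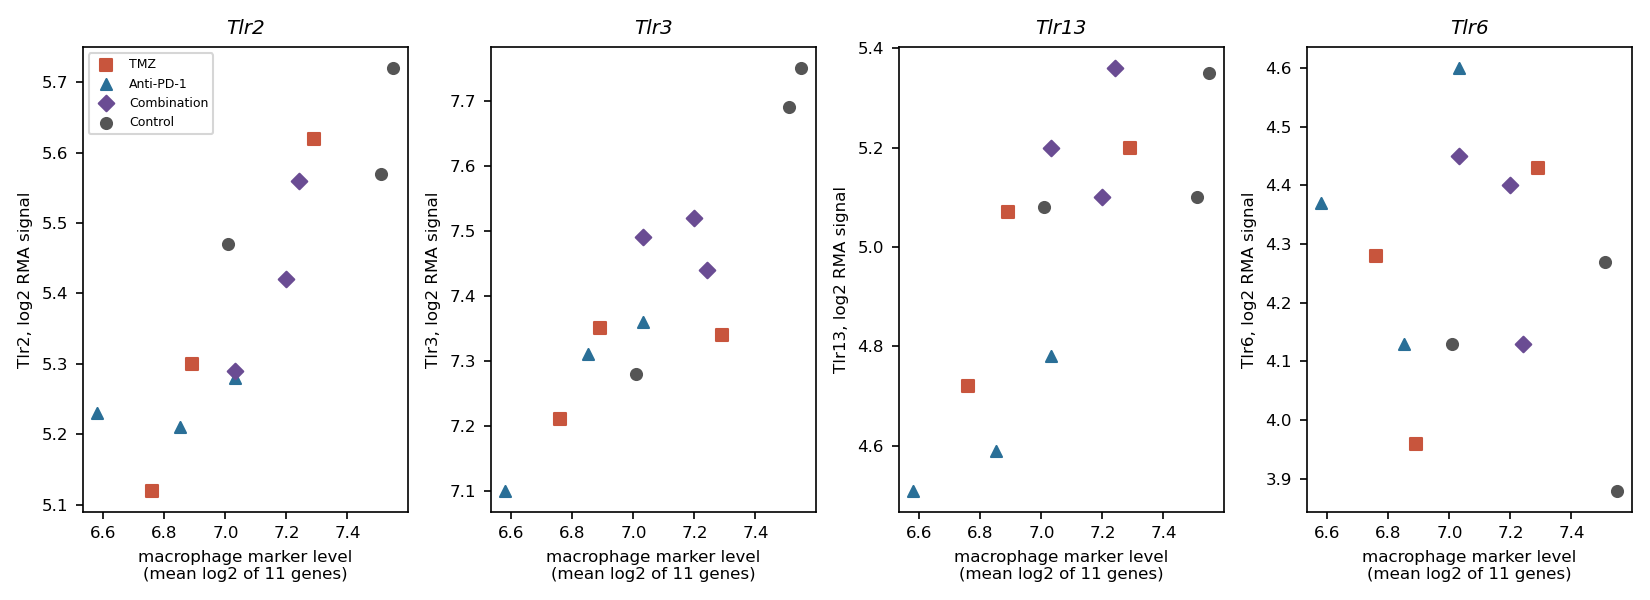
Log2 RMA signal of Tlr2, Tlr3, Tlr13 and Tlr6 (vertical axes) against the mean log2 signal of 11 macrophage genes (horizontal axes) on 12 arrays, with a symbol for each of the 4 groups. The array with the lowest macrophage mean, an Anti-PD-1 array at 6.58, also has the lowest Tlr3 and Tlr13 signals, at 7.10 and 4.51, while the lowest Tlr6 signal, 3.88, is on the Control array with the highest macrophage mean, 7.55.

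Some other genes tracked the receptors closely from array to array. Among 11090 genes above the median signal, Tlr13 was most like Cd274 (Pearson r 0.928 over 12 arrays), which encodes the PD-1 ligand PD-L1, and then Igtp (0.907) and Iigp1 (0.905), GTPases induced by interferon gamma. Tlr2 was most like Lxn (0.949), Ctsd (0.947), the lysosomal protease cathepsin D, and AU020206 (0.944). Tlr3 was most like Serp1 (0.928), Rac2 (0.925), a GTPase of blood cells, and Psmb8 (0.923), an immunoproteasome subunit. Tlr7 was most like Rab5c (0.933), a GTPase of early endosomes, Gm6334 (0.885) and Nacc1 (0.884). The group means of these 3 genes spanned only 0.12, 0.18 and 0.05, and Tlr7 itself gave low signals. Within the family, Tlr13 was most like Tlr4 (0.805), Tlr2 most like Tlr13 (0.801) and Tlr3 most like Tlr8 (0.827). These correlations describe 12 arrays that share the same 4 groups and the same differences in macrophage genes, and no test was applied. The genes outside the family were picked as the 3 highest of about 11090 for each receptor, and such picking alone raises r.

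The rest of the pathway was described through lists of its parts, in which 0 genes passed limma's test in any comparison with Control. The counts at an unadjusted p under 0.05 in these lists stand beside 11.3%, 13.5% and 11.6% of all genes for TMZ, Anti-PD-1 and Combination. Of 6 co-receptors, 5 were lower in TMZ tumours, 6 in Anti-PD-1 tumours and 4 in Combination tumours, with medians of -0.32, -0.39 and -0.23 and with 4, 4 and 1 at an unadjusted p under 0.05. Ly86, which escorts the receptor-like protein Cd180, had differences of -0.67, -0.78 and -0.34 in that order (adjusted p 0.291, 0.153 and 0.587), and Ly96, the lipopolysaccharide-binding partner of Tlr4, of -0.28, -0.34 and -0.23. Of 10 genes for trafficking and processing, 7, 10 and 9 were lower, with medians of -0.10, -0.16 and -0.10 and with 3, 5 and 1 at an unadjusted p under 0.05. Ctss, an endosomal protease that cleaves nucleic acid receptors, had differences of -0.44, -0.75 and -0.29, and Lgmn, another such protease, of -0.28, -0.30 and -0.21.

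Adaptors and kinases carry the signal inside the cell. Of 6 adaptors, 4, 5 and 4 were lower in TMZ, Anti-PD-1 and Combination tumours, with medians of -0.15, -0.16 and -0.18 and with 3, 2 and 3 at an unadjusted p under 0.05. Pik3ap1, an adaptor that links the receptors to phosphoinositide signalling, had differences of -0.55, -0.48 and -0.26 (limma adjusted p 0.11, 0.0821 and 0.385), and Ticam1, the adaptor of Tlr3, of -0.22, -0.08 and -0.15. Of 13 measured kinases and ubiquitin ligases, 5, 7 and 6 were lower, with medians of 0.03, -0.01 and 0.01. At an unadjusted p under 0.05 there were 1, 1 and 2, near the shares of all genes. Btk, a kinase of B and myeloid cells, had differences of -0.41, -0.34 and -0.20 (adjusted p 0.11, 0.0995 and 0.364), and Ikbke, a kinase that activates interferon regulatory factors, of -0.10, -0.13 and -0.25.

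Irf7 and Cxcl10 had the lowest differences of the pathway lists. Irf7 also belongs to the list of 12 interferon-stimulated genes described above. Of 9 measured transcription factors, 9, 8 and 8 were lower in TMZ, Anti-PD-1 and Combination tumours, with medians of -0.14, -0.23 and -0.14 and with 3, 4 and 3 at an unadjusted p under 0.05. Irf7, the factor that drives interferon genes below Tlr7 and Tlr9, had differences of -1.06, -1.42 and -0.79 (limma adjusted p 0.252, 0.0885 and 0.384), and Irf8, a factor of myeloid cells, of -0.39, -0.70 and -0.44. Of 16 induced cytokines and chemokines, 13, 12 and 14 were lower, with medians of -0.13, -0.17 and -0.12 and with 3, 4 and 2 at an unadjusted p under 0.05. Cxcl10, a chemokine for T cells, had differences of -1.77, -2.29 and -1.16 (adjusted p 0.308, 0.127 and 0.494), and Tnf, an inflammatory cytokine, of -0.29, -0.26 and -0.19.

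Regulators and ligands of the family were mixed in direction. Of 12 measured negative regulators, 6, 8 and 6 were lower in TMZ, Anti-PD-1 and Combination tumours, and 2, 4 and 3 had an unadjusted p under 0.05. Socs1, an inhibitor of cytokine signalling, was at -0.40, -0.35 and -0.33, and Nfkbia, the inhibitor of NF-kB, at -0.16, -0.19 and -0.26. Of 11 endogenous ligands, 6, 6 and 8 were lower, and 3, 3 and 0 had an unadjusted p under 0.05. The matrix protein Tnc was at -0.44, -0.43 and -0.20, and S100a8, a protein of myeloid cells, at 0.21, 0.19 and -0.13. Tlr11 and Tlr12, receptors for protozoan profilin, were at -0.09 and -0.02 in TMZ tumours, -0.01 and -0.35 in Anti-PD-1 tumours and 0.06 and -0.13 in Combination tumours.

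**Figure D4:**
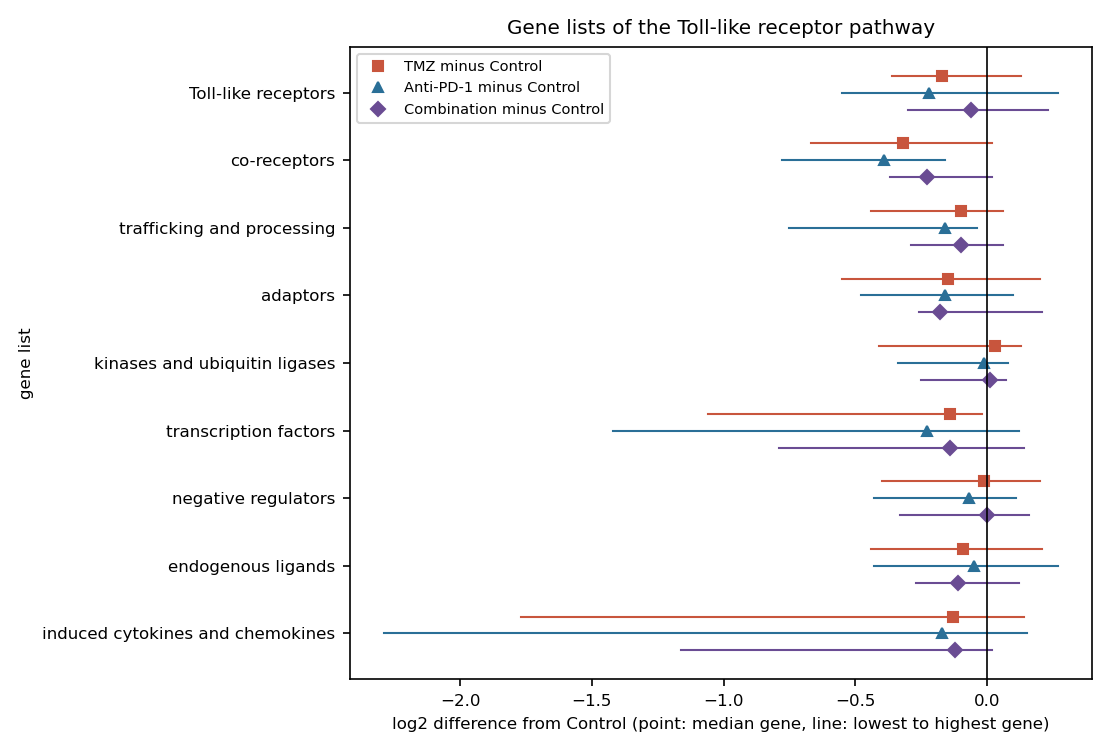
Log2 difference from Control (horizontal axis) for the Toll-like receptors and 8 lists of pathway genes, for TMZ, Anti-PD-1 and Combination; the point is the median gene and the line runs from the lowest to the highest gene. Medians of co-receptors lie lowest, at -0.32, -0.39 and -0.23, and those of kinases and ubiquitin ligases near 0.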

How the data were processed

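Total RNA from tumour masses was measured on 12 Affymetrix mouse whole-transcript arrays. The deposited values are log2 signals made by the authors with RMA in Affymetrix Expression Console, per the submitters' processing notes; no version is given in the sources used here. They covered 41345 probe sets, from 1.24 to 13.14, with 0 missing. The array annotation named 1 symbol for 23521 probe sets, several for 1814 and did not list 16010; for genes with several probe sets the brightest was used, which left 22180 genes.

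Each gene was fitted in R 4.3.3 with limma 3.58.1 (a mean per group, contrasts, eBayes), over all 12 arrays with 8 residual degrees of freedom. Two-sided p-values were Benjamini-Hochberg adjusted over all genes, with a threshold of 0.05. The number of arrays, 3 per group, limits the precision. Alternatives were a variance trend, a filter on dim genes, other probe set choices, only the groups compared, replicate and marker covariates, and leaving out each array. The fit was tested on simulated data with log2 changes of 1 and 2 in Anti-PD-1 minus Control, and 98% of each were recovered. These sizes exceed every receptor difference, so the simulation does not show how well differences of the sizes reported are found.

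Named genes were all 10 receptors; from each list, genes past the threshold or otherwise the 2 with the smallest F test p; and the 3 genes most correlated with each of the 4 receptors of widest range. The members, lists and rules were chosen with earlier results of these data known.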

Additional observations from a re-analysis of the deposited data

How the results depend on the processing

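Over 20 alternatives, 562 of 588 receptor differences from Control kept their direction and 26 reversed. Many of these values could not reverse. The variance trend, the dim filter, the probe set choices, only the groups compared and the replicate block left the differences themselves unchanged. So did leaving out an array of a group outside the comparison. The count that kept direction is therefore no measure of robustness. No receptor passed in the reported fit. With a variance trend 1 receptor passed in Anti-PD-1 minus Control (Tlr13), and leaving out each array gave 0 to 1 receptors for TMZ minus Control, for Anti-PD-1 minus Control and for the interaction, the 1 being Tlr3 without Control replicate 3. Over all genes, the count for TMZ minus Control was 22, and was 113 with a variance trend, 0 with only the groups compared, 1 with all probe sets, 2 with the neuron level and 0 with the macrophage level as a covariate, and 0 to 363 leaving out each array. For Anti-PD-1 minus Control it was 65, and was 381 with a variance trend, 154 without dim genes, 0 with only the groups compared, 1 with all probe sets, 0 with the neuron level, 1 with the macrophage level, and 1 to 686 leaving out each array. For Combination minus Control it was 0, and was 42 with a variance trend, 6 without dim genes, 2 with the macrophage level, and 0 to 282 leaving out each array. For the interaction it was 1, and was 12 with a variance trend, 0 without dim genes, with all probe sets or with the neuron level, and 0 to 198 leaving out each array. For the F test it was 1, and was 90 with a variance trend, 3 without dim genes, 0 with all probe sets or the neuron level, 4 with the mean of a gene's probe sets, and 0 to 245 leaving out each array. The causes were not tested. Only the groups compared gives no value for the interaction or the F test.

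Deviations of same-numbered arrays correlated at -0.16 to 0.16 (18 pairs, median -0.01, 1 above 0.1). Those of differently numbered arrays correlated at -0.27 to 0.20 (36 pairs, 6 above 0.1). By this measure same-numbered arrays were no more alike than the others. Such correlations over all genes cannot exclude a pairing that affects few genes, so whether the numbers pair the samples is not known. With the replicate block 4 genes passed for TMZ minus Control, 20 for Anti-PD-1 minus Control and 5 in the F test, and 0 receptors.

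With the neuron level as a covariate, Tlr4 in TMZ minus Control turned to 0.019, and Tlr7 and Tlr8 in Anti-PD-1 minus Control to 0.016 and 0.037. The Anti-PD-1 differences of Tlr2, Tlr3, Tlr4 and Tlr9 were then smaller than in the reported fit, at -0.209, -0.167, -0.067 and -0.134. For Tlr13 the Anti-PD-1 difference was -0.531 with a limma adjusted p of 0.708, and for Tlr1 it was 0.012. Those of Tlr5 and Tlr6 were wider than in the reported fit, at -0.217 and 0.425. With the macrophage level, chosen after seeing the data, TMZ minus Control turned to 0.128 for Tlr4, -0.049 for Tlr5 and 0.018 for Tlr13, Anti-PD-1 minus Control to 0.030 for Tlr4, 0.266 for Tlr7 and 0.134 for Tlr8, and Combination minus Control to 0.016 for Tlr3. Leaving out each array gave -0.055 to 0.083 for Tlr1 and -0.161 to 0.003 for Tlr4 in TMZ minus Control, and -0.06 to 0.078 for Tlr1 in Anti-PD-1 minus Control. In Combination minus Control it gave -0.124 to 0.02 for Tlr1, -0.235 to 0.002 for Tlr3, -0.048 to 0.091 for Tlr4, -0.036 to 0.033 for Tlr5, -0.302 to 0.039 for Tlr8 and -0.026 to 0.13 for Tlr13.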

Other observations

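Pattern-recognition receptors outside the Toll-like family were looked at as a list of 18 genes chosen after the data were seen, so their counts are a description. Of these, 15 were lower in TMZ tumours, 18 in Anti-PD-1 tumours and 15 in Combination tumours than in Control tumours, with medians of -0.30, -0.26 and -0.28 on the log2 scale. In limma's test 0 passed in each, and 7, 9 and 5 had an unadjusted p under 0.05, against 11.3%, 13.5% and 11.6% of all genes. Ifih1, the cytosolic sensor of long double-stranded RNA, had differences of -0.95, -1.07 and -0.85 in that order (adjusted p 0.205, 0.097 and 0.238). Dhx58, a regulator of that sensor, had differences of -0.57, -0.58 and -0.47.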
